A study of Mus musculus with 18 samples.

Results

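The transcripts described here are those of 10 interferon-induced GTPases, 7 guanylate-binding proteins (GBPs; *Gbp2*, *Gbp3*, *Gbp4*, *Gbp6*, *Gbp7*, *Gbp8* and *Gbp9*) and 3 immunity-related GTPases (IRGs; *Irgm1*, *Igtp* and *Iigp1*), in Foxp3+ regulatory T cells (Tregs) with and without CD25. They were chosen by gene symbol, and each symbol matched 1 row among the 50600 genes of the count table. RNA-seq counts were obtained from FACS-purified Tregs of 18 mice, which fall into 4 groups by tissue and genotype. Thymic CD25 KO Tregs came from 5 CD25cKO mice 3–4 weeks old, which carry floxed *Il2ra* alleles and a Foxp3-YFP/Cre and had been "cured" with WT splenocytes as neonates, and thymic WT Tregs from 5 Foxp3/RFP reporter mice of the same age. For the spleen, 4 mice of the genotype CD25 flox/Foxp3eGFP-Cre-ERT2/R26Y gave CD25 KO Tregs and 4 reporter controls gave WT Tregs; by the labels, tamoxifen was given at 7–10 weeks of age and both groups were harvested 10–14 days later. In both models Cre is expressed from the *Foxp3* locus, so CD25 loss is limited to cells that have expressed Foxp3. The tissues differ in mouse model, age and, by the headers of the table, sequencing run, and these cannot be told apart from tissue. Within the thymus, CD25 genotype changes together with the Foxp3 reporter allele and with the neonatal transfer, which is described for the CD25cKO mice only. Thymic differences between CD25 KO and WT cannot be told apart from these.

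GBPs and IRGs are large families of GTPases of cell-autonomous immunity. Interferon gamma binds its receptor and signals through the kinases Jak1 and Jak2 to GAS elements, and the factor Irf1 that it induces binds tandem GAAA elements in the promoters of GBP and IRG genes. Type I interferons reach the same genes through a complex that includes Stat2 and Irf9. The GTPases are best known for coating and disrupting vacuoles that hold pathogens in macrophages and other cells, and *Irgm1* also has a recognised role in the survival of T cells after activation. IL-2 binds a receptor whose high-affinity form contains CD25, encoded by *Il2ra*, and signals mainly through Stat5.

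Most members lie in clusters of their families in the mouse genome (GRCm38). *Gbp7* (chr3:142530342-142550149), *Gbp3* (chr3:142560026-142573209) and *Gbp2* (chr3:142620602-142638008) are neighbours on the plus strand of chromosome 3. *Gbp8* (chr5:105014150-105139540), *Gbp9* (chr5:105077630-105139539), *Gbp4* (chr5:105115767-105139586) and *Gbp6* (chr5:105270702-105293698) are on the minus strand of chromosome 5. *Irgm1* (chr11:48861968-48871683, minus) and *Igtp* (chr11:58199556-58207591, plus) are on chromosome 11. All 10 members are annotated as protein coding.

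Promoters are shown because factors activated by interferons are known to bind short motifs in the promoters of these families. RefSeq promoter windows (GRCm38.p6, 250 bases before to 50 after a start site) matched 5 of the 10 members, and the promoters of *Gbp4*, *Gbp6*, *Gbp8*, *Gbp9* and *Iigp1* were not analysed here. Windows were searched on both strands for the core of the tandem element bound by IRF factors, GAAANNGAA, and for the palindromic GAS core, TTCNNNGAA. The first was found in 5 of 5 members and the second in 2 of 5 (*Gbp7* and *Igtp*), against 8.56% and 8.30% of all 32851 windows. These shares are per window, and the 5 members had 6 windows. Of 12 other family genes with a window, 8 held the first motif and 5 the second. Each member window with a match is printed 5′ to 3′ on the strand of its gene with matches in capitals, cut so that at most 30 bases lie in annotated exons.
Gbp7, chr3:142530226-142530335, plus strand: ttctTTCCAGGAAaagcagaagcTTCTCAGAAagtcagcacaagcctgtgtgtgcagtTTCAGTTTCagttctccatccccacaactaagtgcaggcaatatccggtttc
Gbp3, chr3:142559934-142560043, plus strand: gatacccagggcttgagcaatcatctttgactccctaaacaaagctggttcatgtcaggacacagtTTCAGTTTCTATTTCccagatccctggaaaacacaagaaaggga
Gbp2, chr3:142620553-142620631, plus strand: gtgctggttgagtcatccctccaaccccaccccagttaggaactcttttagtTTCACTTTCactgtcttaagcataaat
Irgm1, chr11:48871436-48871465, minus strand: actagcctgtttcaaGAAATAGAAACCGAA
Igtp, chr11:58199446-58199555, plus strand: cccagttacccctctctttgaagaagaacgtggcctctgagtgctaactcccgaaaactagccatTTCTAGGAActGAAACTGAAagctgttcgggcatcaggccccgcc

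The tandem element began 58 bases before the start site in *Gbp2*, 52 in *Gbp7* and 34 in *Igtp*. In *Gbp3* and *Irgm1* 2 overlapping copies formed a longer run, beginning 44 and 38 bases before the start in *Gbp3* and 30 and 24 in *Irgm1*. These distances are from the RefSeq start. In the annotation that gave the gene coordinates, all 30 printed bases of *Irgm1* lie in exons. The match of *Gbp2* also lies in an exon there, past the annotated gene start at 142620602. In the 3 genes of chromosome 3 the element is on the minus strand, so that its reverse complement stands in the printed sequence. A second start site listed for *Gbp3* had neither set of letters in its window. GAS letters began 106 and 87 bases before the start of *Gbp7* and 45 before that of *Igtp*, and overlapped no tandem element. A match is a string of letters and not a measured binding site.

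Total counts were 17239774 to 23993674 in thymic and 25258341 to 32639570 in splenic samples, and no member had fewer than 247 counts in any mouse. *Il2ra* itself was 162 ± 88.1 CPM (counts scaled to library size; SD, n = 5) in thymic CD25 KO and 613 ± 73.2 CPM (n = 5) in WT Tregs, and 186 ± 17.3 CPM (n = 4) and 524 ± 23.9 CPM (n = 4) in the spleen, with no overlap. Counts per gene include transcripts that lack the deleted exon, and thymic CD25 KO mice 2 and 4 had more *Il2ra* (280 and 234 CPM) than the other 3 (95.9 to 105 CPM). *Foxp3* was present in every sample, at 204 CPM or more. Of other cells, B cell markers summed to 10.0–20.6 CPM per sample and myeloid and dendritic cell markers to 21.4–60.2 CPM. NK and CD8 T cell markers summed to 19.9–52.8 CPM in the thymus and 8.40–15.95 CPM in the spleen, and erythroid and thymic epithelial markers to 6.15–36 CPM. Of the last 2 lists *Ncr1* and *Foxn1* had at most 3 counts in each mouse, while *Epcam* (epithelium) was 4.43–12.6 CPM over all mice and *Cd8a* 8.01–28.5 CPM over thymic mice. These are bulk samples, in which fewer cells of a type and less RNA per cell cannot be told apart.

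All 10 GTPases were transcribed in WT Tregs of both tissues. In WT Tregs the 10 members summed to 1075 ± 33.3 CPM (SD, n = 5) in the thymus and 1524 ± 134 CPM (n = 4) in the spleen. Per kilobase of exon, *Igtp* was the highest in all 4 groups, from 94.8 ± 15.3 CPM per kb in thymic CD25 KO to 126.9 ± 4.75 CPM per kb in splenic CD25 KO Tregs, and no other member reached it in any mouse. *Gbp9* came next in thymic WT Tregs, at 39.4 ± 2.82 CPM per kb, followed by *Irgm1* (26.4), *Gbp4* (26.3) and *Gbp2* (25.5), which did not differ beyond their spread. *Gbp3* was the lowest there, at 6.02 ± 0.406 CPM per kb. In splenic WT Tregs *Gbp2* was second at 50.7 ± 7.58 CPM per kb, and *Gbp6* the lowest at 6.82 ± 0.611 CPM per kb.

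Members differed in how their level in the spleen compared with that in the thymus. *Gbp3*, a GBP of the chromosome 3 cluster, was 19.7 ± 1.33 CPM (SD, n = 5) in thymic and 76.3 ± 5.61 CPM (n = 4) in splenic WT Tregs, 3.88-fold more in the spleen. *Iigp1*, an effector IRG loaded onto pathogen vacuoles, was 41.1 ± 2.74 and 153 ± 22.5 CPM, 3.74-fold more. *Gbp2*, *Gbp7* and *Gbp8* were 1.99-, 1.76- and 1.72-fold more. *Gbp9* was 204 ± 14.6 CPM in thymic and 182 ± 16.1 CPM in splenic WT Tregs, with overlapping groups, and *Gbp6* and *Irgm1* also overlapped between the tissues. These are descriptions, as run, model and age change with tissue.

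**Figure D1:**
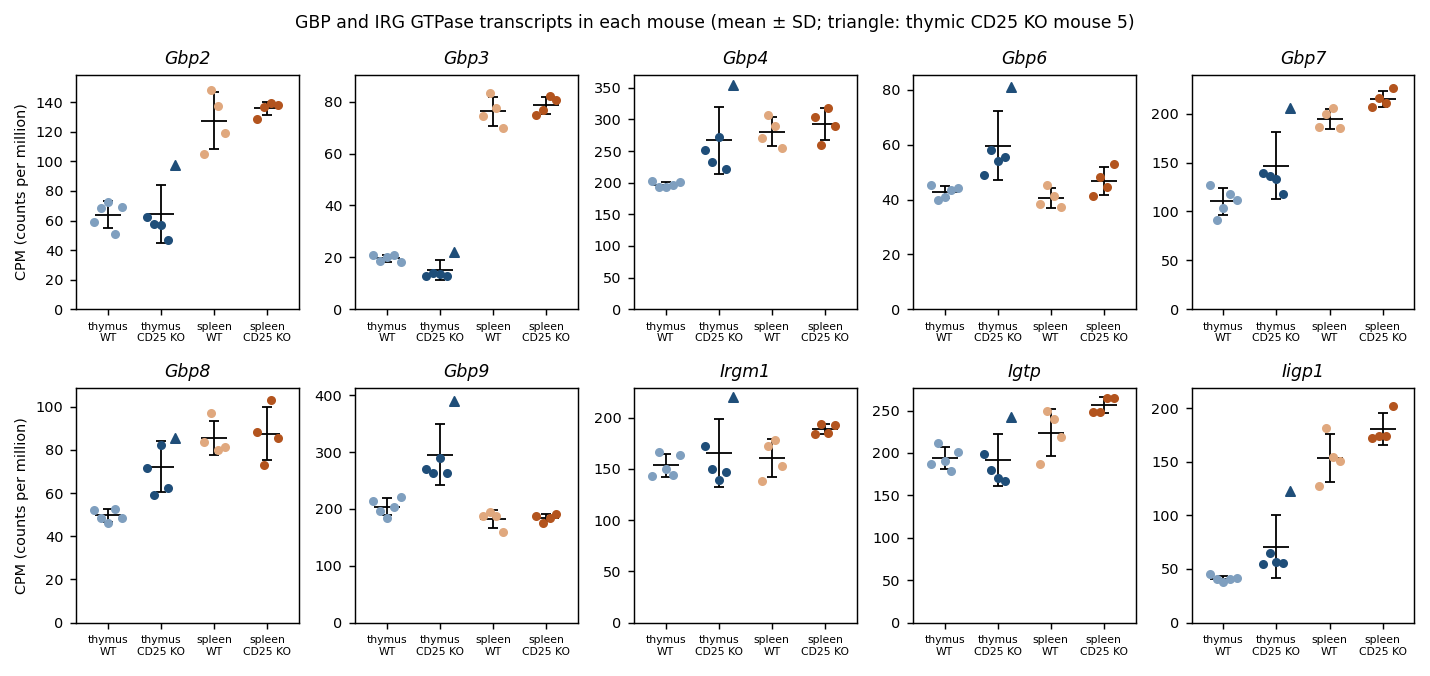
Level of each member in CPM (linear axis from 0) in every mouse of the 4 groups, with the mean and SD as bars; the triangle is thymic CD25 KO mouse 5. *Gbp4*, *Gbp6*, *Gbp8*, *Gbp9* and *Iigp1* lie higher in all 5 thymic CD25 KO mice than in any thymic WT mouse, while splenic groups overlap for 8 of 10 members.

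In thymic Tregs 2 of the 10 members were higher in CD25 KO than in WT mice at FDR < 0.01, *Gbp8* and *Gbp9*, and none was lower. Neither was called with the replicate block (edgeR adjusted p = 0.0180 and 0.0103) or without WT mouse 2, 3 or 5 or CD25 KO mouse 3, nor was *Gbp8* without CD25 KO mouse 1 or *Gbp9* without WT mouse 4, with adjusted p of 0.0103 to 0.0170 in these leave-one-out fits and log2 fold changes of 0.51 to 0.59. Of all 16986 genes tested there, 6.16% were called in either direction and 3.17% as higher. The 4 members of chromosome 5 and *Iigp1* were each higher in all 5 CD25 KO mice than in every WT mouse, whereas those of chromosome 11 and *Gbp2* overlapped, and *Gbp3* had a negative difference. The median log2 fold change was 0.44 over the 10 members and -0.0022 over all genes tested. Groups separated with CD25 KO above WT for 5 of 10 members and for 7.20% of all genes tested.

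*Gbp8*, one of the GBPs of the chromosome 5 cluster, was 52.2, 48.5, 46.0, 52.7 and 48.6 CPM in the 5 thymic WT mice and 71.8, 59.3, 82.3, 62.3 and 85.6 CPM in the 5 CD25 KO mice. The lowest CD25 KO mouse was above the highest WT mouse. The log2 fold change was 0.56 ± 0.10 (SE), 1.47-fold, with an adjusted p of 0.00393 (Benjamini-Hochberg) in the quasi-likelihood test of edgeR.

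*Gbp9*, the most abundant GBP per kilobase in thymic Tregs, was 214, 196, 185, 203 and 221 CPM in WT and 271, 263, 290, 264 and 390 CPM in CD25 KO mice. Again no values overlapped, and mouse 5 was far above the other 4 CD25 KO mice. The log2 fold change was 0.55 ± 0.10 (SE), with an adjusted p of 0.00530 (edgeR).

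*Gbp4* and *Gbp6*, from the same cluster, had differences of like size that did not pass the threshold. *Gbp4* was 203, 193, 193, 196 and 201 CPM in WT and 252, 233, 272, 222 and 355 CPM in CD25 KO mice, a log2 fold change of 0.45 ± 0.11 (edgeR adjusted p = 0.0123). *Gbp6* was 45.3, 39.9, 41.1, 43.6 and 44.1 CPM in WT and 49.1, 58.2, 54.0, 55.6 and 81.2 CPM in CD25 KO mice, a log2 fold change of 0.49 ± 0.12 (adjusted p = 0.0130). WT mice varied little for both genes, and the spread lay in the CD25 KO group. Of the 75-base words of *Gbp6*, 67.3% also occur in *Gbp10* or in *Gm43302*, a read-through annotation over both, so reads of *Gbp6* and *Gbp10* may have been exchanged or left out. *Gbp4*, *Gbp8* and *Gbp9* share overlapping exons on 1 strand, and reads from the overlap belong to no single one of them.

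*Iigp1* (chr18:60376027-60392634, plus strand) had the largest log2 fold change of the 10, 0.80 ± 0.20 (SE), with an adjusted p of 0.0165 (edgeR). It was 45.1, 40.3, 37.5, 40.6 and 41.9 CPM in WT and 54.6, 65.1, 56.2, 55.2 and 123 CPM in CD25 KO mice. Of the CD25 KO mice, 4 sat close together just above WT, and mouse 5 stood far above them. None of its words are shared with another gene.

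The remaining members showed no common direction. *Gbp7* was 127.5, 91.3, 103, 118 and 112 CPM in WT and 140, 136, 134, 118 and 206 CPM in CD25 KO mice, with 4 of 5 CD25 KO mice above all WT mice (log2 fold change 0.43 ± 0.14, edgeR adjusted p = 0.0430). *Gbp3* was 20.8, 18.5, 20.1, 20.9 and 18.1 CPM in WT and 12.8, 14.0, 13.45, 12.9 and 21.9 CPM in CD25 KO mice, with 4 of 5 CD25 KO mice below all WT mice and mouse 5 above them (log2 fold change -0.37 ± 0.14, adjusted p = 0.0729). *Gbp2* (0.02 ± 0.17, adjusted p = 0.946), *Irgm1*, the regulatory IRG that protects host membranes (0.13 ± 0.11, adjusted p = 0.420), and *Igtp*, also a regulatory IRG (0.00 ± 0.09, adjusted p = 0.999), overlapped between genotypes. Their 95% intervals of the log2 fold change were -0.37 to 0.41, -0.13 to 0.38 and -0.21 to 0.21, which hold both directions. That of *Gbp8* was 0.33 to 0.78, which overlaps those of *Gbp2* and *Irgm1*. Differences between genes were not tested.

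**Figure D2:**
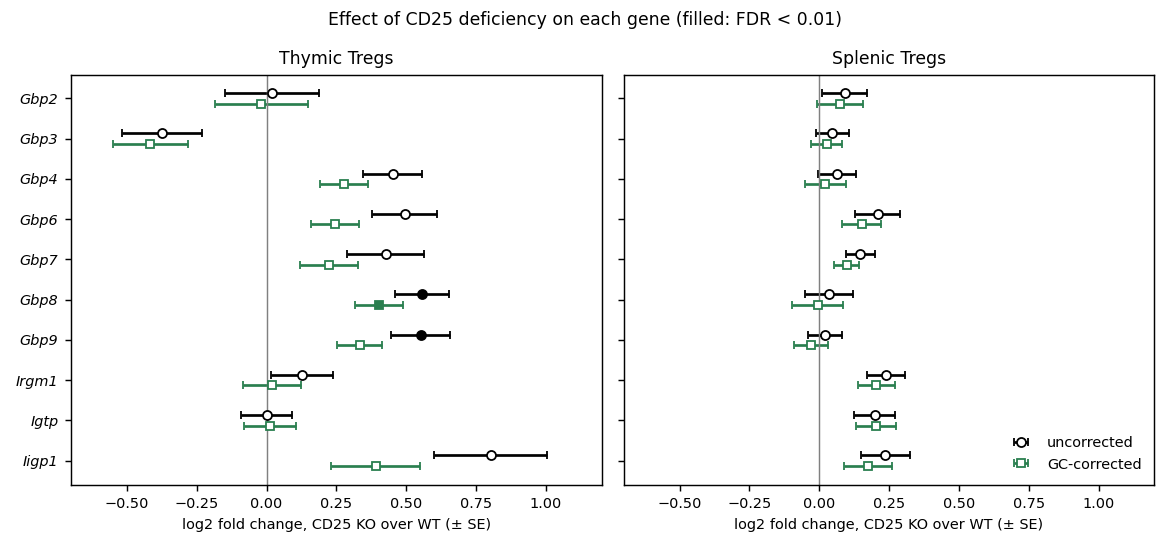
Log2 fold change of CD25 KO over WT (x axis, ± SE) for each member in thymic (left) and splenic (right) Tregs; circles are the fit on the counts and squares the fit after correction for GC content, filled at FDR < 0.01. *Gbp8* and *Gbp9* are filled in the thymus, only *Gbp8* after the correction, and none in the spleen.

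The thymic comparison also carried a trend with base composition that touched these genes. Over 16945 genes the thymic log2 fold change correlated with the GC content of the gene's transcripts across genes (Spearman's rho = -0.41, genes not being independent; spleen -0.17 over 17423 genes), and genes of 42–44% GC had a median log2 fold change of 0.18. *Iigp1* has 39.4% GC, the 4 members of chromosome 5 have 42.5–44.5%, *Gbp7* 43.4% and *Irgm1* 45.8%, and *Gbp3*, *Gbp2* and *Igtp* 47.5–49.8%. With each library's GC trend as an offset, *Gbp8* kept its call (log2 fold change 0.40 ± 0.09, edgeR adjusted p = 0.00960), *Gbp9* did not (0.33 ± 0.08, adjusted p = 0.0166), and 4.97% of 16945 genes were called in either direction. *Iigp1* moved from 0.80 to 0.39 ± 0.16 (adjusted p = 0.108), and the median over the members from 0.44 to 0.24. Whether the trend is technical was not tested.

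**Figure D3:**
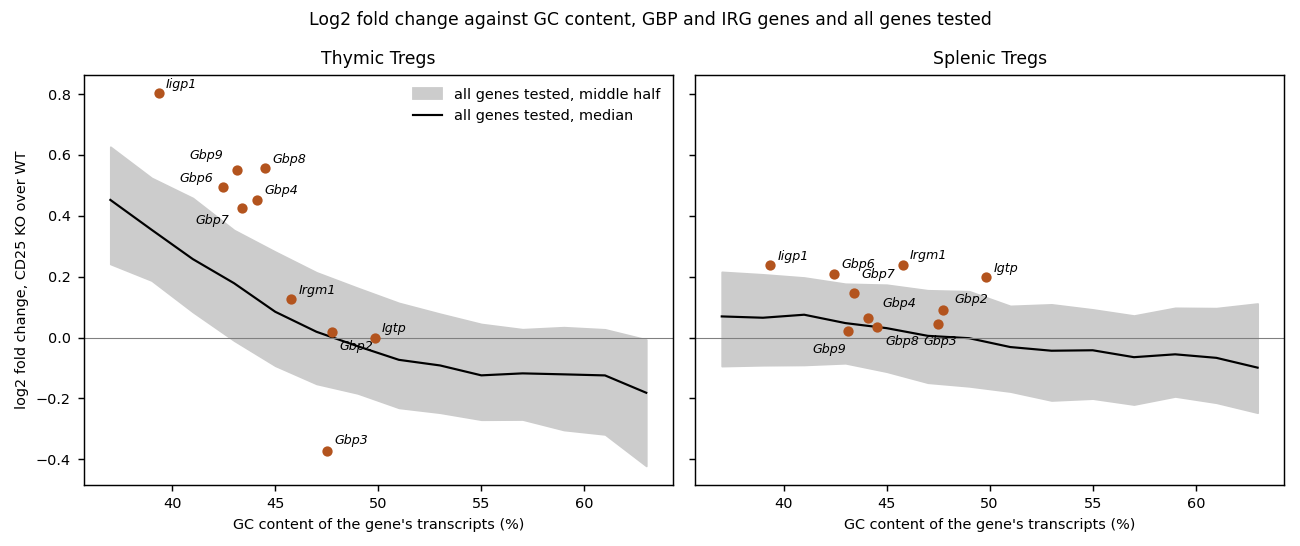
Log2 fold change of CD25 KO over WT (y axis) against GC content of the gene's transcripts in percent (x axis), for all genes tested (line, median in bins of GC; grey, interquartile range) and the 10 members (points). In the thymus the median falls as GC rises, and *Iigp1*, *Gbp7* and the chromosome 5 members lie above the interquartile range at their GC, while *Gbp3* lies below it.

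Much of the spread came from 1 animal. Thymic CD25 KO mouse 5 was the highest of its group for all 10 members, by 0.26 (*Gbp8*) to 0.87 (*Iigp1*) above the group mean on the log2 scale, and its members summed to 1823 CPM against 1149 to 1284 CPM in the other 4. It was also the highest of the 5 for 22 of 22 tested genes stimulated by type I interferon for 12 of 17 other GBP, IRG and GVIN genes and for 7 of 13 other genes induced by interferon gamma, against 28.9% of all genes tested. It was the lowest of the 5 for 5 of 6 Treg markers, against 30.9% of all genes tested, and the highest for 1. These 6 markers summed to 3210 CPM in mouse 5, inside the 2899 to 3515 CPM of its group. The largest part of that sum was *Ikzf2*, with a mean of 1800 CPM in the group, so the sum shows little of the other markers. Its *Irf1* (279 CPM) lay within the 242 to 297 CPM of the other 4. Its *Il2ra* was 95.9 CPM. Of other cell types, its macrophage marker *Lyz2* was 10.1 CPM against 0.163 to 1.04 CPM in the other 4 and 1.153 to 12.02 CPM in WT mice. Of the 6 tested myeloid and dendritic markers, including *Lyz2*, mouse 5 was the highest of the 5 for 2 and the lowest for 3. They summed to 32.99 CPM, inside the 21.4–33.1 CPM of its group, and their part in the result was not tested. Mouse 5 was singled out by its values for these members, so a smaller spread without it follows from that choice. Calls without it are no separate result. Without mouse 5 the spread of the CD25 KO group shrank and 6 of 10 members were called (edgeR, FDR < 0.01), against 5.73% of all genes tested in that fit. *Gbp4* (log2 fold change 0.33), *Gbp6* (0.36), *Gbp8* (0.49), *Gbp9* (0.43) and *Iigp1* (0.51) were then higher and *Gbp3* lower (-0.55, adjusted p = 0.00174). With the GC correction as well, 1 member was called (4.50% of all genes), *Gbp3* (-0.58, adjusted p = 7.50e-04), and *Gbp8* (0.36, adjusted p = 0.0158) and *Gbp9* (0.25, adjusted p = 0.0132) were not. Without both CD25 KO mice of higher *Il2ra*, a choice made after seeing the data, 3 were called (11.5% of all genes), *Gbp4* (0.58), *Gbp8* (0.70) and *Gbp9* (0.65).

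**Figure D4:**
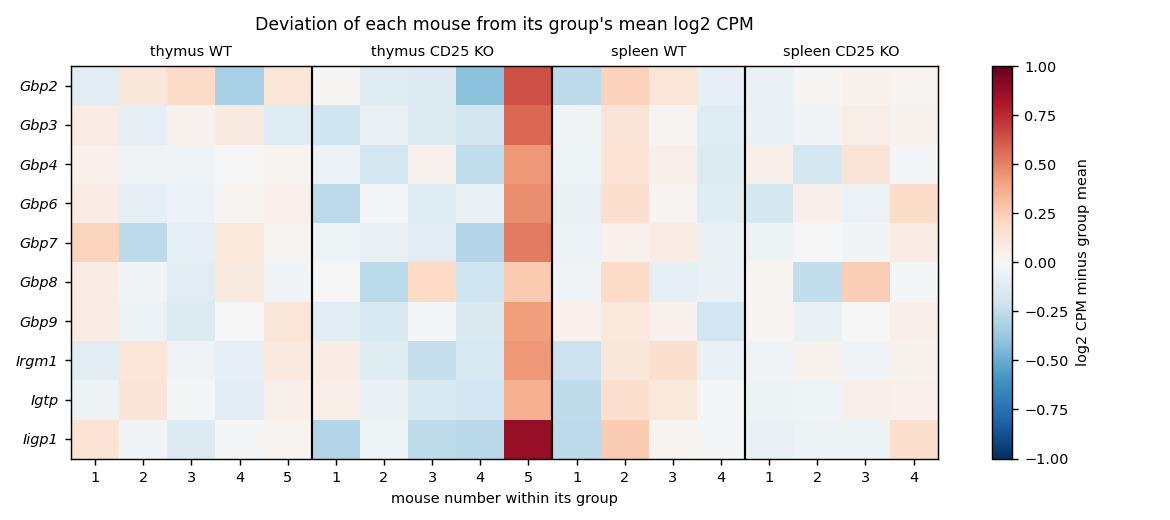
Log2 CPM of each member (rows) in each mouse (columns, numbered within groups) minus the mean of the mouse's group, with red above and blue below. The column of thymic CD25 KO mouse 5 is red for all 10 members, from 0.26 to 0.87.

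In splenic Tregs none of the 10 members passed FDR < 0.01 in edgeR, where 9.45% of 17463 genes tested were called. All 10 log2 fold changes were above 0, from 0.02 (*Gbp9*) to 0.24 (*Irgm1*), with a median of 0.12 against -0.0065 over all genes tested. An unadjusted p under 0.05 held for 5. The share of all genes under it is not given here, so this count cannot be judged. *Irgm1* was 138, 172, 178 and 153 CPM in WT and 184, 193, 185 and 193 CPM in CD25 KO mice, so that each CD25 KO mouse was above each WT mouse (0.24 ± 0.07, edgeR adjusted p = 0.0245). *Gbp7* was 187, 200, 206 and 185 CPM in WT and 207, 216, 211 and 227 CPM in CD25 KO mice, also without overlap (0.15 ± 0.05, adjusted p = 0.0619). Such separation held for 2 of 10 members and for 11.2% of all genes tested. *Iigp1* reached 182 CPM, with a mean of 153 ± 22.5 CPM (SD, n = 4), in WT mice and was 172, 174, 174 and 203 CPM in CD25 KO mice (0.24 ± 0.09, adjusted p = 0.0734), and *Igtp* was 187, 249, 240 and 219 CPM in WT and 248, 249, 265 and 265 CPM in CD25 KO mice (0.20 ± 0.07, adjusted p = 0.0743). For both genes the highest WT mouse was above the lowest CD25 KO mouse. *Gbp8* and *Gbp9*, called in the thymus, were 0.03 ± 0.09 and 0.02 ± 0.06 here, with 95% intervals of -0.18 to 0.25 and -0.13 to 0.17.

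The count of calls depended on the threshold more in the thymus than in the spleen. At FDR < 0.05, 6 members were higher in thymic CD25 KO Tregs, against 12.3% of all genes, and 1 (*Irgm1*) in the spleen, against 10.2%. DESeq2, the tool of the study, called 5 as higher in the thymus at 0.01 (*Gbp4*, *Gbp6*, *Gbp8*, *Gbp9* and *Iigp1*), against 8.72% of its genes, and none in the spleen, against 7.02%.

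The difference between the tissues in the effect of CD25 deficiency was tested directly in all 18 samples. No member passed FDR < 0.01 (6.98% of 18686 genes did). An unadjusted p under 0.05 held for 5, again without a share of all genes to set it against. The closest were *Gbp9*, with a spleen-minus-thymus difference of log2 fold changes of -0.52 ± 0.13 (edgeR adjusted p = 0.0131), and *Gbp8*, with -0.51 ± 0.15 (adjusted p = 0.0233). That for *Iigp1* was -0.55 ± 0.25 (adjusted p = 0.133) and that for *Gbp3* 0.44 ± 0.16 (adjusted p = 0.0667). Without thymic CD25 KO mouse 5, 2 members were called (7.34% of all genes), *Gbp9* (-0.40, edgeR adjusted p = 0.00480) and *Gbp3* (0.61, edgeR adjusted p = 1.42e-04). That mouse was singled out by its values for these members, so these calls are no separate result.

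Other genes of the GBP, IRG and GVIN families moved in both directions. In the thymus 17 of 20 were tested, and 1 rose and 1 fell, where 6.16% of all genes tested were called in either direction. *Gbp10*, which neighbours *Gbp6*, was 31.7 ± 3.15 CPM (SD, n = 5) in WT and 59.1 ± 18.1 CPM (n = 5) in CD25 KO Tregs, without overlap (log2 fold change 0.92 ± 0.17, edgeR adjusted p = 0.00460). Of its words, 77.8% are shared, most of them with *Gbp6*. *Gbp2b*, between *Gbp3* and *Gbp2* on chromosome 3, had 14 to 44 counts in WT and 0 to 4 counts in CD25 KO mice (log2 fold change -3.32 ± 0.53, adjusted p = 0.00253). In the spleen 20 were tested, and *Gbp2b* again fell, from 8.77 ± 1.18 to 4.78 ± 0.551 CPM (n = 4 each; -0.88 ± 0.13, adjusted p = 2.24e-04). Of all genes tested in the spleen, 9.45% were called in either direction. There *Tgtp2*, an IRG, rose from 89.8 ± 11.2 to 117 ± 1.96 CPM (0.39 ± 0.07, adjusted p = 0.00146), and the IRG-like *Gm4841* rose by 0.52 ± 0.11 on the log2 scale (adjusted p = 0.00369); 81.4% of the words of *Tgtp2* are shared, nearly all with *Tgtp1*. *Gbp5*, a GBP linked to inflammasome activation, did not pass in thymus (0.11 ± 0.12) or spleen (-0.05 ± 0.05). In the test between tissues *Gbp2b* was called (2.46 ± 0.53, adjusted p = 0.00360), as was *9930111J21Rik1* (-0.67 ± 0.17, adjusted p = 0.00943). The median of the list was 0.11 in each tissue, against -0.0022 in the thymus and -0.0065 in the spleen over all genes tested.

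Upstream of the GTPases, the transcription factor *Irf1* rose in the thymus, and the ligand *Ifng* and the receptor chain *Ifngr1* in the spleen. *Irf1* was 207, 241, 217, 184 and 226 CPM in WT and 297, 242, 268, 258 and 279 CPM in CD25 KO mice (log2 fold change 0.34 ± 0.07, edgeR adjusted p = 0.00811). Each CD25 KO mouse was above each WT mouse, and the call held with the GC correction (edgeR adjusted p = 0.00249). *Socs1*, an inhibitor of Jak kinases that cytokines induce, fell by 0.92 ± 0.07 (adjusted p = 1.27e-05). *Ifng* had 0 to 7 counts in each thymic mouse and was not tested. Thymic *Ifngr1* went down (-0.46 ± 0.13, edgeR adjusted p = 0.0226) and *Jak2* up (0.26 ± 0.06, edgeR adjusted p = 0.0154), and neither passed FDR < 0.01. DESeq2 called both (adjusted p = 0.00450 and 0.00256). With the GC correction *Ifngr1* was -0.49 (edgeR adjusted p = 0.0172) and *Jak2* 0.09 (edgeR adjusted p = 0.191). Thymic *Ifngr2* was 0.01 ± 0.06.

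In the spleen 3 of 18 interferon signalling genes rose and 3 fell, where 9.45% of all genes tested were called in either direction. *Ifng* was 2.67 ± 0.440 CPM (SD, n = 4) in WT and 6.37 ± 0.902 CPM (n = 4) in CD25 KO Tregs (log2 fold change 1.25 ± 0.16, edgeR adjusted p = 4.54e-05). The receptor chains went opposite ways, *Ifngr1* rising (0.55 ± 0.08) and *Ifngr2* falling (-0.44 ± 0.07), *Jak2* rose (0.48 ± 0.05), and *Socs1* (-0.45 ± 0.06) and the type I receptor chain *Ifnar1* (-0.22 ± 0.05) fell. *Irf1* was 0.08 ± 0.06 (adjusted p = 0.392). *Jak1*, *Stat2* and *Irf9* passed in neither tissue, with log2 fold changes from -0.10 to 0.06. Between the tissues the effects on *Ifngr1* (1.03 ± 0.17), *Ifngr2* (-0.43 ± 0.11) and *Socs1* (0.48 ± 0.10) differed at FDR < 0.01, and that on *Irf1* (adjusted p = 0.0987) did not pass. Beside these, the NK marker *Klrb1c* was 0.366 to 2.60 CPM in WT and 3.04 to 5.77 CPM in CD25 KO spleens, and the summed NK and CD8 T cell markers 8.40–11.3 and 12.1–15.95 CPM. *Lyz2* was 4.41 to 9.49 CPM in WT and 11.46 to 15.1 CPM in CD25 KO spleens, and the summed myeloid and dendritic markers 41.8–46.9 and 47.6–60.2 CPM. The largest part of that sum was *Zbtb46*, at means of 24.6 and 27.2 CPM. Other markers of the list had lower means in CD25 KO spleens, *Csf1r* (6.45 and 5.48 CPM) and *Adgre1* (1.47 and 0.843 CPM). Of 5 genes of this list tested in the spleen, 3 had a positive log2 fold change, 1 was called higher and 0 lower. Their part in the splenic results was not tested.

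**Figure D5:**
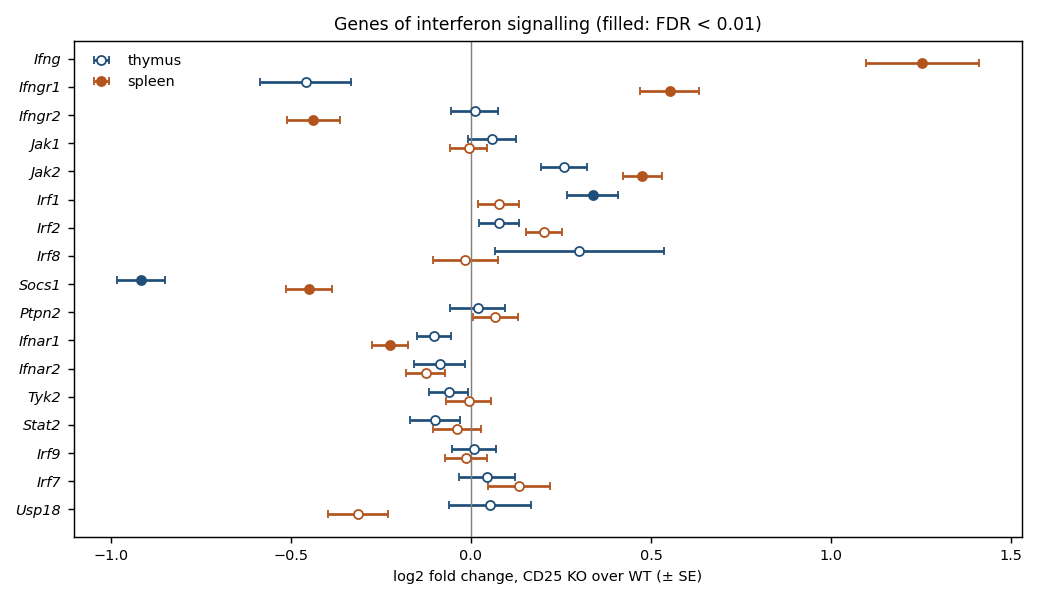
Log2 fold change of CD25 KO over WT (x axis, ± SE) of interferon signalling genes in thymic (blue) and splenic (orange) Tregs, filled at FDR < 0.01. *Irf1* is filled above 0 in the thymus, *Ifng*, *Ifngr1* and *Jak2* in the spleen, and *Socs1* below 0 in both.

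Other genes that interferons induce were counted in the same way, beside 6.16% of all genes called in either direction in the thymus and 9.45% in the spleen. Medians over all genes tested were -0.0022 and -0.0065. Of 13 other genes induced by interferon gamma tested in the thymus, 1 rose, *Cd274*, which encodes PD-L1 (0.32 ± 0.06), and 2 fell, the peptide transporter subunit *Tap2* (-0.26 ± 0.05) and the protease inhibitor *Serpina3g* (-2.33 ± 0.35), with 3 positive and a median of -0.08. With the GC correction *Serpina3g* kept its call, and *Cd274* (0.18, edgeR adjusted p = 0.0318) and *Tap2* (-0.14, adjusted p = 0.0640) did not. Of 14 in the spleen, 3 rose, the chemokine *Cxcl10* (1.08 ± 0.10), *Serpina3g* (0.63 ± 0.07) and *Cd274* (0.31 ± 0.05), none fell, and 13 were positive. Of 22 genes stimulated by type I interferon, the thymus had 1 higher (*Ifit2*, 0.40 ± 0.08) and 1 lower (*Oas3*, -0.65 ± 0.13), and the spleen 2 higher (*Oas1a*, 0.38 ± 0.08, and the RNA sensor *Ifih1*, 0.28 ± 0.06), with medians of 0.04 and 0.10 and with 12 and 18 positive. With the GC correction neither *Ifit2* (0.19, edgeR adjusted p = 0.0616) nor *Oas3* (-0.54, adjusted p = 0.0205) was called in the thymus, while both splenic calls held.

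Genes that serve the GTPases were described in the same way, beside the same shares of all genes called in edgeR (6.16% in the thymus and 9.45% in the spleen). None of 11 genes of ATG8 conjugation, the machinery that directs GBPs and IRGs to membranes, was called in edgeR in either tissue. An unadjusted p under 0.05 held for 5 in the thymus and 6 in the spleen, with no share of all genes to set beside it. DESeq2 called *Atg3* as higher and *Gabarapl1* as lower in the thymus and none in the spleen. With the GC correction in the thymus *Atg3* was 0.05 (edgeR adjusted p = 0.563) and *Gabarapl1* -0.50 (adjusted p = 0.0313). Of the genes of prenylation, which anchors some GBPs in membranes, *Pggt1b*, a subunit of the geranylgeranyl transferase, rose in the thymus (0.49 ± 0.08), and *Fdps* (-0.68 ± 0.15), an enzyme of isoprenoid synthesis, fell in the spleen. Of 9 genes of prenylation and isoprenoid supply tested in each tissue, *Pggt1b* was the only call in the thymus. In the spleen 2 were called lower, 1 of them *Fdps*, and 0 higher. Of 6 inflammasome genes tested in the spleen, *Casp1* (0.77 ± 0.08) and *Casp4*, which encodes caspase-11 (0.75 ± 0.08), rose. None of 5 was called in the thymus by edgeR, where 3 had an unadjusted p under 0.05 (share of all genes not given). DESeq2 called *Aim2*, a sensor of cytosolic DNA, as higher in the thymus (adjusted p = 0.00519). With the GC correction *Aim2* was 0.24 there (edgeR adjusted p = 0.1115).

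Finally, the members varied together from mouse to mouse. Over 45 pairs of members, the correlation of deviations from group means over 18 mice had a median of 0.70 (range 0.26 to 0.95), and a median of 0.32 (range -0.13 to 0.90) without thymic CD25 KO mouse 5. Among 12302 other genes, the 8 whose pattern over the 18 samples, with tissue means removed, was most like the mean of the members were *Ifi44* (r = 0.93), *Slc30a9* (0.91), *Ifi213* (0.91), *Trim12c* (0.91), *Pcmtd2* (0.89), *Tgtp2* (0.88), *Gm43753* (0.88) and *Ifih1* (0.88). All 8 were highest in mouse 5 within its group. The choice by likeness favoured this, as all 10 members were highest in that mouse too, so it is no separate result. The points share library and depth, and these values are descriptions.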

How the data were processed

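FACS-purified Tregs of 18 mice were sequenced by the authors as paired 75-base reads. Per the labels and methods, they aligned reads to GRCm38 (mm10) with STAR 2.5.0b, counted them per gene of GENCODE M13 with featureCounts 1.5.0, and deposited raw counts. Settings for strand and shared reads are not given in the sources used here. Symbols, coordinates, GC content and exon lengths came from GENCODE M21, the same build (50376 of 50600 identifiers with a symbol).

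The counts were analysed in R 4.3.3 with edgeR 4.0.16: filterByExpr, TMM, and the quasi-likelihood test of CD25 KO against WT within each tissue, with Benjamini-Hochberg adjustment over all genes tested and a threshold of FDR < 0.01. The difference between tissues was tested in 1 fit of 18 samples. Standard errors came from the F statistic, and 95% intervals from them with residual degrees of freedom. CPM use TMM-scaled totals over all 18 samples. The GC correction entered each library's trend of log2 CPM with GC (spline with 5 degrees of freedom) as an offset. DESeq2 1.42.0, the tool of the study, was an alternative, since edgeR was the main test here. Other alternatives were other normalizations and filters, FDR < 0.05, 1 fit of all samples, a replicate block and leaving out each mouse. Procedures were tested on simulated data.

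Named genes were all members, all tested genes of their families, genes of interferon signalling, up to 3 called genes with the largest changes per direction of each other list, and the 8 genes most like the members. *Gm43302*, *Ifnar1*, *Atg3*, *Gabarapl1*, *Aim2* and the markers named were added after their values were seen. Members and lists were chosen with earlier results of these data known. No molecular identifiers are described for the reads, and p-values measure the spread between the mice sampled. Some genes of these lists are not reported here.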

Additional observations from a re-analysis of the deposited data

Results flagged for a closer look

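Among 40 sets of 1 member in 1 group, 6 held a mouse whose gap to the next was large for the range of its group by Dixon's criterion. Chance meets it in about 1 of 20 independent sets. The sets here share mice and the members vary together, so their count cannot be set against that rate. Thymic CD25 KO mouse 5 was the high value in 5 of them. *Gbp3* was 21.9 CPM in it and 12.8 to 14.0 CPM in the other 4 CD25 KO mice. *Gbp6* was 81.2 CPM against 49.1 to 58.2 CPM, *Gbp7* 206 CPM against 118 to 140 CPM, *Gbp9* 390 CPM against 263 to 290 CPM, and *Iigp1* 123 CPM against 54.6 to 65.1 CPM. The sixth was *Iigp1* in splenic CD25 KO mouse 4, at 203 CPM against 172 to 174 CPM in the other 3.

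Of the genes of other lists, 11 differed between the tissues in the effect of CD25 deficiency in the test of the difference itself (edgeR, FDR < 0.01, spleen minus thymus). Of all 18686 genes tested, 6.98% did. The difference of log2 fold changes was 2.46 for *Gbp2b*, -0.67 for *9930111J21Rik1*, 1.03 for *Ifngr1*, -0.43 for *Ifngr2*, 0.48 for *Socs1*, 2.96 for *Serpina3g*, -0.47 for *Ifit2*, 0.96 for *Oas3*, 0.94 for *Gabarapl1*, 1.41 for *Casp4* and 1.43 for *Casp1*. Tissue, mouse model, age and run change together in this comparison and cannot be told apart.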

How the results depend on the processing

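The count of called members in the thymus, 2 in the main analysis, was 4 with upper-quartile normalization, 5 with DESeq2, 5 without a filter, 6 with all 18 samples in 1 fit, 6 at FDR < 0.05, 1 with the GC correction, 1 with that correction and without CD25 KO mouse 5 (an alternative chosen after seeing the data), and 0 with a replicate block, alone or with the GC correction. Thymic mice that share a number deviated from their groups with correlations of -0.24 to 0.14, and 1 of 5 CD25 KO mice correlated best with its own number, so the numbers were not taken as pairs. Leaving out 1 mouse gave 0 to 6 calls: 0 without WT mouse 2, 3 or 5 or CD25 KO mouse 3, 1 without WT mouse 4 or CD25 KO mouse 1, and 6 without CD25 KO mouse 5. In the spleen 0 became 2 (*Irgm1* and *Iigp1*) without a filter and 1 at FDR < 0.05, and in the test between tissues 0 became 1 with upper-quartile normalization, 1 without a filter, 2 at FDR < 0.05 and 0 to 2 when leaving out 1 mouse (2 without thymic CD25 KO mouse 2 or 5, 1 without thymic CD25 KO mouse 4, splenic WT mouse 4 or splenic CD25 KO mouse 3). The cause of these shifts was not tested.

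Signs turned for members near 0. In the thymus *Igtp* was -0.0006 on the log2 scale without a filter, -0.0164 with all samples in 1 fit, -0.0116 with the replicate block and -0.0863 with the GC correction and without mouse 5, and -0.0990 to 0.0451 when leaving out 1 mouse. *Gbp2* was -0.0140 with the replicate block, -0.0184 with the GC correction, -0.0475 with both, -0.2079 with the GC correction and without mouse 5 (where *Irgm1* was -0.0824), and -0.1810 to 0.1133 when leaving out 1 mouse. In the spleen *Gbp9* was -0.0092 with upper-quartile normalization, -0.0283 with the GC correction and -0.0403 to 0.0564 when leaving out 1 mouse, and *Gbp8* was -0.0059 with the GC correction and -0.0509 to 0.1118 when leaving out 1 mouse. In the test between tissues *Gbp2* was -0.0191 to 0.2870 when leaving out 1 mouse. Thymic log2 fold changes of *Gbp4*, *Gbp6*, *Gbp7*, *Gbp8*, *Gbp9* and *Iigp1* stayed above 0 and that of *Gbp3* below 0 in all 22 alternatives.

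Over all genes, 1047 were called in the thymus, against 2733 with DESeq2, 2881 with all 18 samples in 1 fit, 3951 at FDR < 0.05, 2008 without the CD25 KO mice of higher *Il2ra*, 209 with the replicate block, 281 with the block and the GC correction, and 371 to 1087 when leaving out 1 mouse. In the spleen the 1651 calls became 795 with all samples in 1 fit, 3001 at FDR < 0.05 and 1099 to 1723 when leaving out 1 mouse, and between tissues 1305 became 3149 at FDR < 0.05 and 817 to 1489 when leaving out 1 mouse.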
